A study of Mus musculus with 24 samples.

Results

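The uterus of mice that had undergone surgery to induce endometriosis was compared with that of sham-operated mice 1 month after surgery, gene by gene. Eutopic uterus means the endometrium in its normal place, in contrast to the lesions that grow outside it. The comparison used 8 of the 24 libraries of the series, 4 of eutopic uterus and 4 of sham uterus at 1 month, as their labels assign them. Of the 56691 genes in the count table, 21208 had enough reads to be tested.

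Surgery was done at 8 weeks of age. All mice were mated afterwards, and the tissue was taken on pregnancy day 3.5, when blastocysts have reached the uterine lumen and are about to attach. Every 1-month animal is labelled fertile, and every library carries the same strain label, mixed C57BL/6 and SV129. The sample labels give Rosa26mTmG/+ as the genotype of both eutopic and sham uterus, a reporter allele that marks cells by membrane-bound fluorescent proteins. The design text instead gives Pgrcre/+Rosa26mTmG/+ for the mice with endometriosis, in which Cre is inserted into a copy of the progesterone receptor gene. If the design text holds for the eutopic libraries and not for the sham libraries, the Pgr-Cre allele and the surgery cannot be told apart. Eutopic and sham uterus at 3 months after surgery, 4 libraries each, served to test whether a difference changed with time. The lesions at 1 month are set beside some genes as values. The labels do not tie libraries to animals, so the p-values measure the spread between these libraries.

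Before implantation, progesterone acting through its receptor PGR stops the luminal epithelium from dividing, and oestrogen then opens a short receptive period. Epithelial Indian hedgehog signals to the stroma, where HAND2 restrains fibroblast growth factors that would keep the epithelium dividing. Glands under FOXA2 release LIF, which acts through the receptor chain gp130 and STAT3 on the luminal epithelium and is needed for attachment in mice. Endometriosis is known to be accompanied by inflammation and by altered progesterone response in the eutopic endometrium.

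Of the called genes, the one with the larger difference, Ifi202b, lies in a cluster of PYHIN genes on mouse chromosome 1, whose proteins bind DNA through HIN domains and take part in innate immune sensing. The Ifi202b product p202 lacks the pyrin domain of its relatives and restrains the AIM2 inflammasome. The level of Ifi202b is known to differ between inbred mouse strains and is very low in C57BL/6. The 250 bases before the annotated start of Ifi202b, Ifi211 and Ifi213 are shown because Ifi202b was called and the other 2 members had values of the opposite sign with no overlap between groups. The sequences come from RefSeq on build GRCm38.p6, the C57BL/6J reference, on the minus strand of chromosome 1, at chr1:173982845-173983094 for Ifi202b, chr1:173913047-173913296 for Ifi211 and chr1:173599273-173599522 for Ifi213. Capitals mark matches to the core of the interferon-stimulated response element (ISRE), which is GAAA, any 2 bases and GAAA, or to TTCNNNGAA, the core of a STAT site, searched on both strands.
Ifi202b: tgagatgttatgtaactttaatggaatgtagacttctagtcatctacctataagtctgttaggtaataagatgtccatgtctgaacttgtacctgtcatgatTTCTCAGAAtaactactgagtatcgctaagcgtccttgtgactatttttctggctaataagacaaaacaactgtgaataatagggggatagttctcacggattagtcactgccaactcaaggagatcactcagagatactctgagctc
Ifi211: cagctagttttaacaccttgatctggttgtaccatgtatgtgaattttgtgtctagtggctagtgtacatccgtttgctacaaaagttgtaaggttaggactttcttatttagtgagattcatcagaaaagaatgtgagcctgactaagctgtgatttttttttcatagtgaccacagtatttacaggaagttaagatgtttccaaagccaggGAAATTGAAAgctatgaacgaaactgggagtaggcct
Ifi213: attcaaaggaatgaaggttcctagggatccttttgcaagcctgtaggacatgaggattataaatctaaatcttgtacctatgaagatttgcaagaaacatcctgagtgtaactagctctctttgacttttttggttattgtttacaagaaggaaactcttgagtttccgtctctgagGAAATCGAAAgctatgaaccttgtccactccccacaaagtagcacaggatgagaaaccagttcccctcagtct
The ISRE core stood once upstream of Ifi211 and once upstream of Ifi213, and TTCNNNGAA stood once upstream of Ifi202b. The Ifi202b window held no ISRE core, and neither did that of Ifi209, a member with lower values in eutopic uterus. The core also stood upstream of Mndal, Ifi205 and 1 of 2 annotated starts of Ifi203, whose values overlapped between groups. Over all 32851 windows of this length, 2.98% held the ISRE core and 7.02% held TTCNNNGAA. These matches describe letters in a window and were not tested for binding.

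Sequencing depth was even. Total counts were 54334664 to 58800226 in eutopic libraries and 53605892 to 58872212 in sham libraries. Levels are given as CPM, the reads of a gene scaled to a common library size. Pearson correlations of log2 CPM were 0.984 to 0.993 between a eutopic and a sham library, 0.987 to 0.995 among eutopic libraries and 0.986 to 0.994 among sham libraries. Reads on ribosomal RNA genes made up 0.251% to 0.421% of eutopic libraries and 0.497% to 0.981% of sham libraries, with no overlap. Whether this moved any gene's value was not tested. The uterine transcription factor Hoxa10 was at 392 ± 32.2 CPM in eutopic libraries and 414 ± 41.6 CPM in sham libraries (SD, n = 4 each). Smooth muscle markers were present too, with a summed level of 14343 to 21834 CPM in eutopic libraries and 17266 to 22024 CPM in sham libraries, so the libraries hold muscle beside endometrium. In bulk tissue, fewer cells of a type and less RNA per cell cannot be told apart.

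Eutopic uterus differed from sham uterus in 2 of 21208 genes (0.00943%) by edgeR's quasi-likelihood test with Benjamini-Hochberg adjusted p under 0.05. Both, Ifi202b and the pseudogene Gm13736, were higher in eutopic uterus, and 0 genes were lower by edgeR, against 7 by DESeq2 and 9 by limma voom. At unadjusted p under 0.05, 1020 genes (4.81%) passed, 496 of them higher (2.34%) and 524 lower (2.47%). That count was 2628 without eutopic library 1, 619 without eutopic library 4 and 663 without sham library 2. The 4 eutopic values all lay above the 4 sham values in 396 genes (1.87%) and all below them in 352 genes (1.66%). Log2 fold changes were above 0 in 10579 genes (49.9%), and below 0 in 10629 (50.1%), with a median of -0.000519 over all genes tested.

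The small number of calls can be read with the intervals of the fold changes. The 95% interval lay within a 2-fold change either way for 15435 genes (72.8%). Among the 14167 genes with a mean log2 CPM of at least 1, it did so for 13049 (92.1%). The median distance from the estimate to the end of its interval was 0.44 on the log2 scale over all genes and 0.31 in the better expressed ones. The genes outside those counts include the called Ifi202b and Gm13736. For the others, a difference of 2-fold or more was not excluded at this depth and spread.

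**Figure D1:**
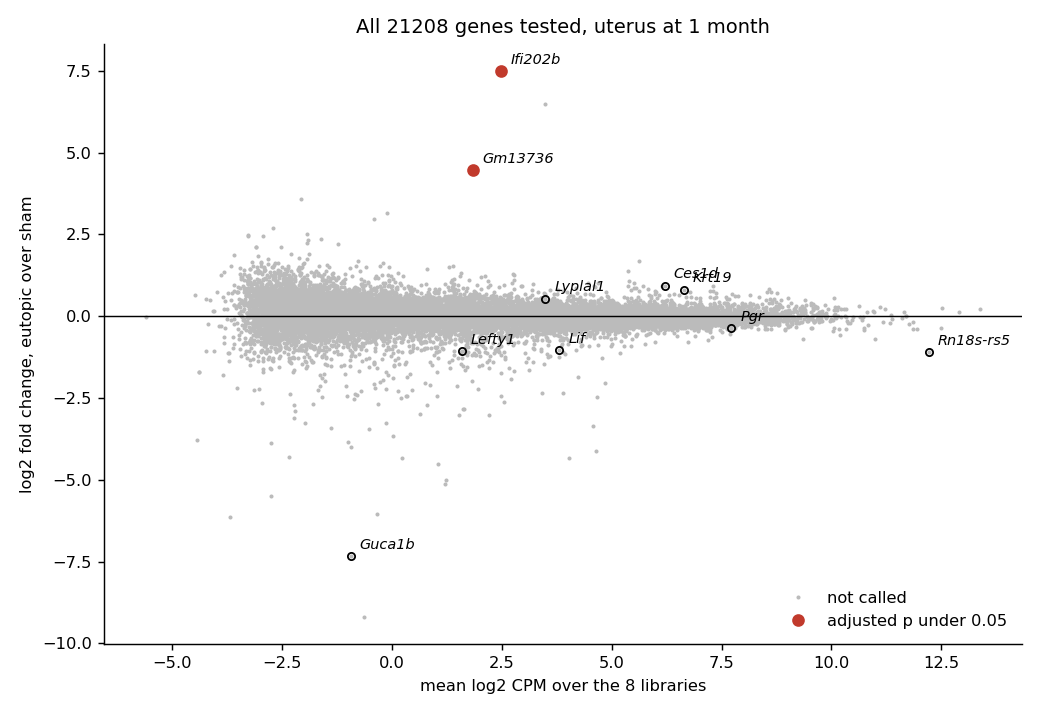
Log2 fold change of eutopic over sham uterus at 1 month (vertical axis) against mean log2 CPM of the 8 libraries (horizontal axis), 1 point per tested gene. The 2 genes with adjusted p under 0.05, Ifi202b and Gm13736, are in red above the cloud, and the other genes spread about 0.

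Ifi202b (ENSMUSG00000026535.10) had 675, 676, 685 and 608 reads in eutopic libraries 1 to 4, against 5, 3, 2 and 4 reads in sham libraries 1 to 4. The corresponding levels were 11.8, 11.5, 11.3 and 10.2 CPM in eutopic uterus and 0.0832, 0.0531, 0.0357 and 0.0676 CPM in sham uterus. The eutopic libraries were nearly equal to each other, and every sham library was close to 0. The ratio of the means was 187, and the fitted log2 fold change was 7.49 ± 0.42 (SE; 95% interval 6.58 to 8.39; edgeR adjusted p = 2.03e-07). Lesions at 1 month also had many Ifi202b reads, 862, 807, 652 and 1368. Lesions at 3 months were split, with 12, 28, 549 and 1032 reads.

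In the uterus 3 months after surgery, Ifi202b was close to 0 in both groups, with 2, 2, 1 and 0 reads in eutopic libraries and 2, 0, 2 and 4 reads in sham libraries. The difference at 1 month exceeded that at 3 months by 7.99 ± 0.89 on the log2 scale (edgeR interaction contrast, adjusted p = 0.00142). This contrast called 2 of 21208 genes (0.00943%), Ifi202b and Gm13736. Adjusted p for Ifi202b was 0.0519 when sham library 4 of the 3-month group was left out. It was 4.28e-14 to 0.0187 under the other alternatives on uterine libraries. In addition, edgeR called 0 genes, with 354 at unadjusted p under 0.05, when the lesion libraries shared the fit, where DESeq2 on the uterine libraries called 8. With the lesion libraries in edgeR's fit, adjusted p for Ifi202b was 0.9999. The 3-month mice are other animals than the 1-month mice, and what each animal inherited at this cluster was not tested.

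No other PYHIN gene was called by edgeR beside Ifi202b. Of the 13 PYHIN genes tested, 10 had a negative log2 fold change, against 50.1% of all genes, and Ifi202b alone passed edgeR's test. Ifi211 was also called by voom, as lower. Ifi211 had 3.70, 3.56, 3.46 and 3.03 CPM in eutopic libraries, against 5.09, 5.59, 4.47 and 6.32 CPM in sham libraries, a log2 difference of -0.64 ± 0.17 (SE). Ifi213 had 2.37, 2.26, 2.14 and 2.28 CPM in eutopic libraries, against 5.14, 2.62, 3.72 and 5.22 CPM in sham libraries, a log2 difference of -0.89 ± 0.29. Ifi209 had 5.26, 4.53, 3.99 and 4.01 CPM in eutopic libraries, against 8.12, 5.31, 6.56 and 7.73 CPM in sham libraries, a log2 difference of -0.64 ± 0.27. In these 3 of 13 genes every eutopic library lay below every sham library, as it did in 1.66% of all genes tested, but edgeR's adjusted p stayed above 0.05 for each. The other PYHIN genes overlapped between groups. Ifi203, beside Ifi202b in the order of tested genes, had a log2 difference of -0.07 ± 0.17, which was 0.07 without sham library 1. Ifi205, on the other side of Ifi202b, had one of -0.24 ± 0.25. Beyond Ifi203 came Ifi211, with the lower values given above, and then Mndal, at -0.09 ± 0.17.

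PYHIN genes are close relatives. How the authors' counting treated reads that match several of them is not known from the labels, and such reads could have been split. The DNA-sensing list that holds them, with Cgas and Sting1 among the other members, had 19 members tested and 1 called. Cgas, which makes the second messenger cGAMP on binding DNA, and Sting1, the receptor of cGAMP, each had all 4 eutopic values below all 4 sham values without passing the test.

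**Figure D2:**
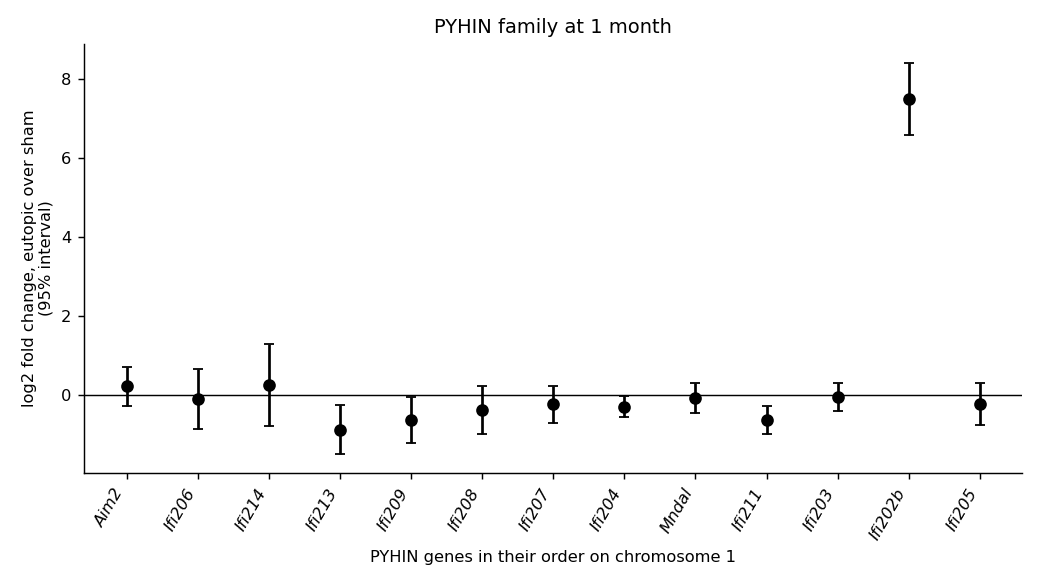
Log2 fold change of eutopic over sham uterus at 1 month for the 13 tested PYHIN genes, in their order along chromosome 1, with 95% intervals. Ifi202b stands at 7.49, and 10 of the 13 estimates lie below 0.

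Gm13736 (ENSMUSG00000082908.5) is annotated as a processed pseudogene on chromosome 2. It had 236, 466, 479 and 449 reads in eutopic libraries and 18, 19, 25 and 9 reads in sham libraries. The levels were 4.14, 7.90, 7.93 and 7.53 CPM in eutopic uterus, against 0.300, 0.336, 0.447 and 0.152 CPM in sham uterus. Eutopic library 1 was the lowest of its group, and still lay above every sham library. The ratio of the means was 22.3, and the log2 fold change was 4.47 ± 0.33 (95% interval 3.77 to 5.17; edgeR adjusted p = 5.24e-06). At 3 months eutopic uterus averaged 0.413 ± 0.0994 CPM and sham uterus 0.328 ± 0.0812 CPM (SD, n = 4 each). The difference at 1 month exceeded that at 3 months by 4.14 ± 0.45 on the log2 scale (edgeR adjusted p = 0.00142). With the lesion libraries in edgeR's fit, adjusted p of this contrast was 0.527. Gm13736 reads in lesions were 85, 198, 90 and 143 at 1 month, and 15, 22, 148 and 100 at 3 months. The higher counts of 3-month lesions were in libraries 3 and 4, as for Ifi202b.

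The annotated Gm13736 transcript, 253 bases long in GENCODE M21, matched a transcript of Srp9 over 253 bases at 100% identity. Srp9 encodes a protein of the signal recognition particle, which brings nascent secretory proteins to the endoplasmic reticulum. Srp9 itself had 29.8, 44.2, 42.5 and 44.9 CPM in eutopic libraries and 46.1, 46.6, 58.9 and 51.4 CPM in sham libraries, a log2 difference of -0.33 ± 0.15, and -0.21 ± 0.14 without eutopic library 1. Every eutopic library was lower than every sham library. The sum of Gm13736 and Srp9 was 47.2 ± 8.88 CPM in eutopic uterus and 51.1 ± 5.98 CPM in sham uterus (SD, n = 4 each). Most of this sum is Srp9, and its spread is as large as the Gm13736 difference, so it does not show whether reads passed between the genes. Gm13736 held 14.4% ± 1.56 of that sum in eutopic libraries and 0.602% ± 0.209 in sham libraries. The count of Gm13736 is uncertain as a measure of a separate transcript, because reads of identical sequence can be given to either gene. The nearest tested neighbours of Gm13736 on chromosome 2, Olfr1033, Olfr1034, Gm1826, Olfr1259, Ptprj and Nup160, all overlapped between the groups. Srp9 lies on chromosome 1, as Ifi202b does, at places 1228 and 1154 in the order of its 1325 tested genes. Whether the calls of Ifi202b and Gm13736 are linked was not tested.

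**Figure D3:**
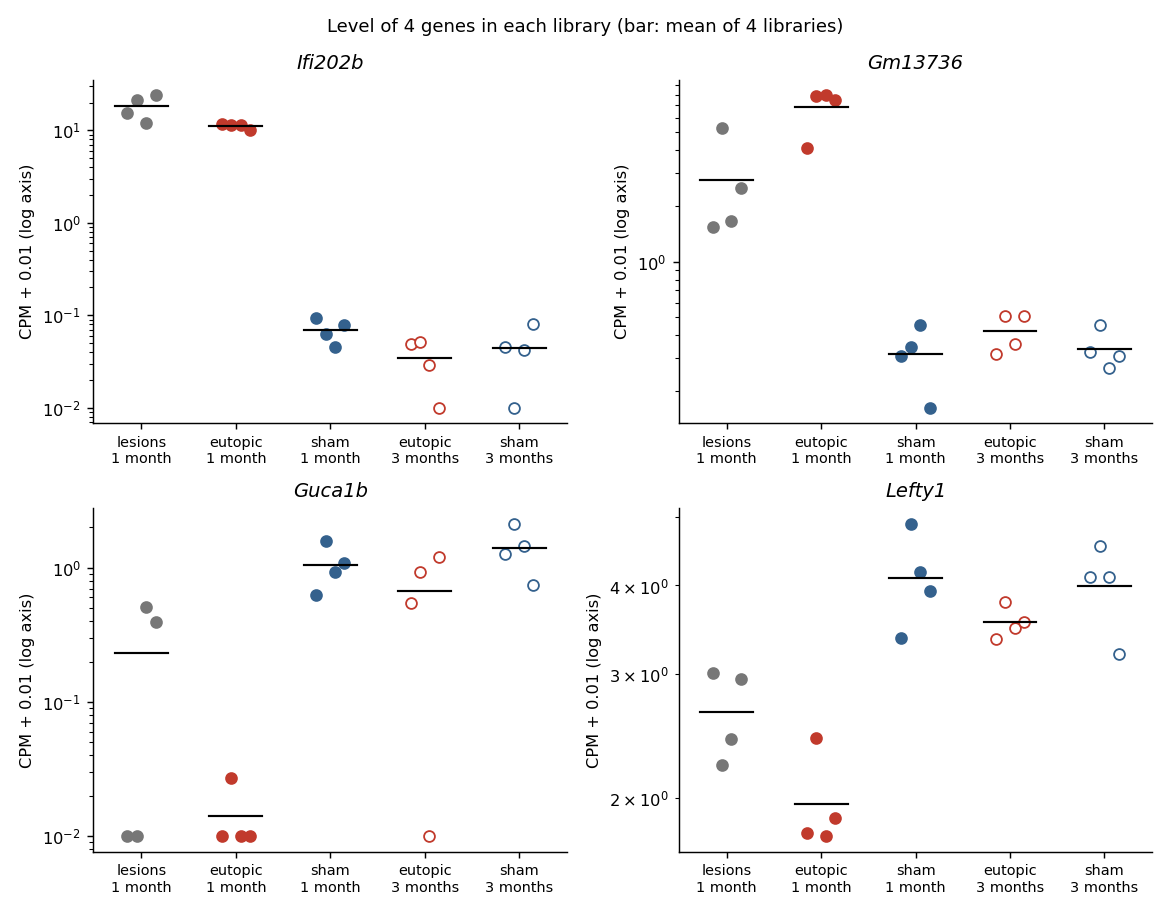
CPM plus 0.01 on a log axis for Ifi202b, Gm13736, Guca1b and Lefty1, 1 point per library and a bar at the mean, in lesions at 1 month, eutopic and sham uterus at 1 month (filled) and eutopic and sham uterus at 3 months (open). Ifi202b and Gm13736 are high in eutopic uterus at 1 month, above sham uterus in the lesions, and low in both 3-month groups. Guca1b is almost absent from eutopic uterus at 1 month.

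Guca1b and Lefty1 came next, both at edgeR adjusted p = 0.0627 and therefore not called. Guca1b encodes a calcium sensor known from photoreceptors, where it regulates guanylate cyclase. It had 0, 1, 0 and 0 reads in eutopic libraries and 37, 89, 51 and 63 reads in sham libraries. The eutopic libraries held 1 read in all, so the sham to eutopic ratio of summed reads was 240 with a wide exact Clopper-Pearson 95% interval of 42.7 to 9532, which covers counting error only. At 3 months, eutopic libraries had 28, 44, 0 and 67 Guca1b reads and sham libraries 72, 105, 91 and 42. Among lesions at 1 month, 2 libraries had 0 reads and the others had 27 and 22. Single libraries at or near 0 thus appeared in 3 groups. Guca1b was called when only the 8 libraries were fitted (adjusted p = 0.00252) and when genes with few reads were kept (adjusted p = 0.0187), and by both other tools. Its adjusted p ranged from 2.62e-06 to 0.750 over all alternatives, and was above 0.05 in 11 of 15.

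Lefty1 encodes a secreted inhibitor of NODAL signalling, a branch of the TGF-beta family. It had 1.77, 2.42, 1.75 and 1.86 CPM in eutopic libraries, against 3.36, 4.88, 4.16 and 3.92 CPM in sham libraries. No value overlapped, and the log2 difference was -1.06 ± 0.17 (SE). At 3 months eutopic uterus averaged 3.54 ± 0.179 CPM and sham uterus 3.98 ± 0.569 CPM (SD, n = 4 each). The change of the Lefty1 difference between 1 and 3 months was -0.89 ± 0.24 on the log2 scale, and did not pass adjustment over all genes (edgeR adjusted p = 0.979).

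DESeq2 called 14 of the 20307 genes to which it gave an adjusted p (0.0689%), and limma voom with library weights called 39 of 21208 (0.184%). Both tools called 10 genes in common, and all 3 tools called 2, Ifi202b and Gm13736. Lefty1 was called by both of the other tools, at adjusted p = 1.95e-07 by DESeq2 and 0.00407 by voom, and its adjusted p was up to 0.695 under the other alternatives. The voom weights gave eutopic library 1 a weight of 0.357 and sham library 2 one of 0.608, against 0.980 to 3.00 in the other 6 libraries. Genes called by these tools alone are given by their values, since edgeR did not call them.

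Ces1d, a carboxylesterase that hydrolyses lipid esters, had 73.6, 104, 100 and 110 CPM in eutopic libraries and 56.7, 52.0, 47.4 and 46.1 CPM in sham libraries. All eutopic libraries lay above all sham libraries, with a log2 difference of 0.94 ± 0.20. Lyplal1, a lysophospholipase-like protein, averaged 13.3 ± 0.687 CPM in eutopic uterus and 9.16 ± 1.16 CPM in sham uterus. Thrsp, which promotes fatty acid synthesis in lipogenic tissues, averaged 61.1 ± 16.5 CPM in eutopic uterus and 30.5 ± 6.60 CPM in sham uterus. Neither of these genes overlapped between groups. Npc1, which exports cholesterol from lysosomes, averaged 113 ± 27.9 CPM in eutopic uterus and 71.8 ± 8.02 CPM in sham uterus. Ctf1, cardiotrophin 1, a cytokine of the LIF family, averaged 13.7 ± 3.14 CPM in eutopic uterus and 8.45 ± 1.19 CPM in sham uterus. In both Npc1 and Ctf1 the lowest eutopic library, at 77.5 and 9.94 CPM, fell just inside the sham range. The pseudogene Gm5512 and the noncoding gene Hmga2-ps1 were also above their sham values, by 1.54 ± 0.33 and 0.73 ± 0.18 on the log2 scale.

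Among genes named by DESeq2 with a lower value in eutopic uterus, Ighv1-14, an immunoglobulin segment, was read in sham library 3, at 5.09 CPM, and in no eutopic library. Its call therefore rests on 1 library. The segment Ighv1-4 averaged 2.73 ± 0.924 CPM in eutopic uterus and 10.3 ± 6.06 CPM in sham uterus. Rn18s-rs5, a ribosomal RNA sequence, stood at 2459 to 4099 CPM in eutopic libraries and 4759 to 9612 CPM in sham libraries, beside the ribosomal shares given above.

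None of the 14 panel genes of steroid response and receptivity was called by edgeR, and 2 of them, Lif and Msx1, had unadjusted p under 0.05. Lif had 6.21, 9.46, 9.37 and 12.0 CPM in eutopic libraries, against 14.2, 18.9, 17.3 and 25.1 CPM in sham libraries. The groups did not overlap, and the log2 difference was -1.03 ± 0.45 with a 95% interval of -1.99 to -0.07. At 3 months Lif averaged 8.92 ± 6.77 CPM in eutopic uterus and 10.1 ± 3.95 CPM in sham uterus (SD, n = 4 each), and the difference between times was -0.84 ± 0.64. The oestrogen-responsive gene Ltf, lactotransferrin, had 38.9, 42.0, 37.4 and 122 CPM in eutopic libraries and 31.1, 18.4, 12.7 and 29.7 CPM in sham libraries. Eutopic library 4 stood apart from the others of its group. The log2 difference was 1.39 ± 0.69, and 0.78 without that library.

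The progesterone receptor Pgr averaged 185 ± 61.5 CPM in eutopic uterus and 237 ± 44.5 CPM in sham uterus, with a 95% interval of -0.97 to 0.25 for the log2 difference. Its highest eutopic value, 276 CPM in library 1, lay within the sham range of 192 to 297 CPM. The oestrogen receptor Esr1 averaged 483 ± 108 CPM in eutopic uterus and 538 ± 70.4 CPM in sham uterus, with an interval of -0.58 to 0.27. Without eutopic library 1 the Pgr estimate was -0.62 ± 0.28 (SE), with edgeR adjusted p = 0.404, against a range of 0.0859 to 1 over all alternatives. Hand2, the stromal mediator of progesterone action, had an interval of -0.42 to 0.15, and Hoxa10, Foxa2, Klf5 and Bmp2 had log2 differences of -0.08 ± 0.17, -0.03 ± 0.21, 0.32 ± 0.21 and -0.14 ± 0.18. The epithelial homeobox gene Msx1, needed for receptivity in mice, averaged 250 ± 55.8 CPM in eutopic uterus and 191 ± 11.8 CPM in sham uterus, a log2 difference of 0.39 ± 0.17. The ligand genes Areg and Wnt4 had wide errors, at 0.66 ± 0.78 and -0.08 ± 0.58.

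**Figure D4:**
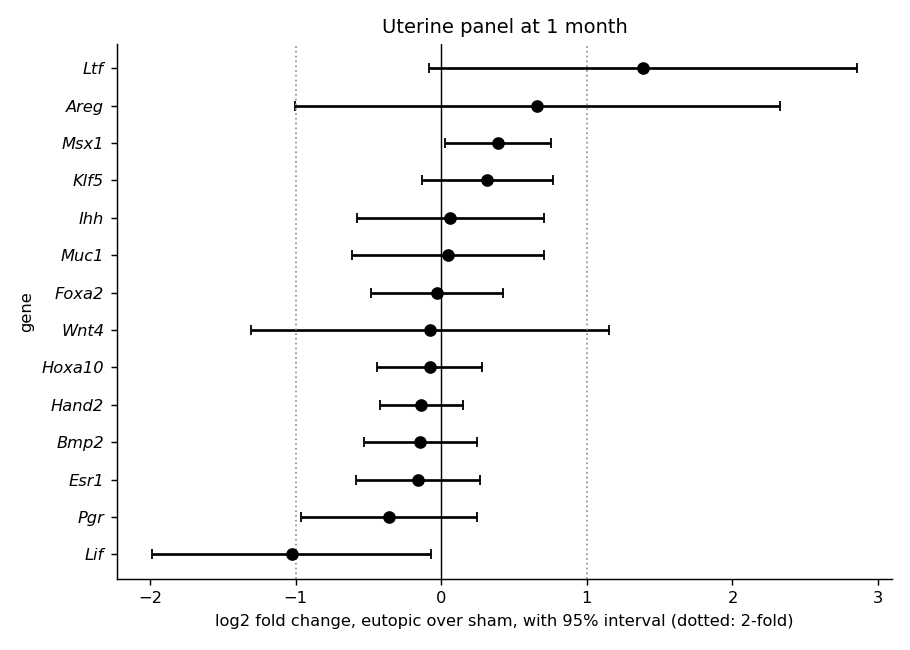
Log2 fold change of eutopic over sham uterus at 1 month for 14 genes of the receptive uterus, with 95% intervals and dotted lines at a 2-fold change either way. None passed the test, and the interval of Lif, from -1.99 to -0.07, is the only one placed wholly on 1 side of 0 apart from that of Msx1.

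The wider lists for progesterone and oestrogen action held 0 genes called by edgeR. Of 27 progesterone target genes tested, 13 had a positive log2 fold change and the median was -0.01. Of 22 oestrogen target genes, 9 were positive with a median of -0.04. Hedgehog signalling had 2 of 14 positive with a median of -0.07, and the intervals of 13 lay within a 2-fold change. The list of steroid and related receptors had 2 of 10 positive and a median of -0.13. At edgeR's unadjusted p under 0.05, that list had 2 higher and 1 lower, beside 2.34% and 2.47% of all genes. In it the vitamin D receptor Vdr averaged 4.39 ± 0.746 CPM in eutopic uterus and 6.79 ± 1.32 CPM in sham uterus, and was called by voom but not by edgeR. Among 16 stromal FGF genes, 8 were positive. Fgf1, a growth factor for epithelium, had 67.3, 53.6, 82.0 and 71.0 CPM in eutopic libraries and 43.1, 21.3, 44.4 and 33.9 CPM in sham libraries. All its eutopic values were above all its sham values, with a log2 difference of 0.94 ± 0.33. Decidual genes had 2 of 14 positive and a median of -0.09, and genes of the Mullerian and Hox patterning list had 9 of 18 positive and a median of -0.01.

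Genes of the implantation signal had 11 of 26 positive and a median of -0.04, which was 0.07 without sham library 1, with 1 higher and 3 lower at unadjusted p under 0.05, beside 2.34% and 2.47% of all genes. Those 3 were Lif, Socs3 and Il6st, and none was called. Socs3, the feedback inhibitor of STAT3 signalling, had 15.9, 30.8, 27.99 and 28.6 CPM in eutopic libraries and 37.6, 41.9, 40.0 and 45.5 CPM in sham libraries. Every eutopic library was below every sham library, and the log2 difference was -0.68 ± 0.25. Il6st, which encodes gp130, the signalling chain of the LIF receptor, averaged 987 ± 125 CPM in eutopic uterus and 1306 ± 178 CPM in sham uterus, and its values overlapped.

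Prostaglandin genes, whose products act on the implanting uterus, had 11 of 22 positive and a median of 0.02. Pla2g4a, cytosolic phospholipase A2, which frees arachidonic acid, had 118, 106, 153 and 157 CPM in eutopic libraries and 94.4, 89.2, 94.4 and 79.6 CPM in sham libraries. The groups did not overlap, and the log2 difference was 0.58 ± 0.15. Slco2a1, the prostaglandin transporter, averaged 37.4 ± 4.08 CPM in eutopic uterus and 56.7 ± 13.3 CPM in sham uterus. Ptges, a prostaglandin E synthase, averaged 13.3 ± 2.06 CPM in eutopic uterus and 16.6 ± 1.64 CPM in sham uterus. None of the 3 was called by edgeR, and Pla2g4a was called by voom.

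Wnt genes had 10 of 32 positive and a median of -0.14, or -0.09 without sham library 2. Among the 32, 5 were lower and 0 higher at unadjusted p under 0.05, beside 2.47% lower and 2.34% higher of all genes tested. Dkk2, which binds the Wnt co-receptor LRP6, had 31.4, 28.4, 30.9 and 32.5 CPM in eutopic libraries and 41.8, 42.0, 42.5 and 41.5 CPM in sham libraries. The spread within each group was small and the groups did not overlap, but the log2 difference of -0.44 ± 0.12 was not called. Sfrp1, a secreted Wnt antagonist, averaged 22.2 ± 7.07 CPM in eutopic uterus and 41.5 ± 13.3 CPM in sham uterus. Dkk3 averaged 89.4 ± 11.4 CPM in eutopic uterus and 115 ± 11.9 CPM in sham uterus. In the BMP and TGF-beta list, 9 of 37 were positive with a median of -0.10, and the BMP antagonist Chrd averaged 14.8 ± 1.18 CPM in eutopic uterus and 21.2 ± 5.40 CPM in sham uterus.

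Luminal epithelium markers mostly had positive fold changes and matrix genes negative ones, with 0 genes called by edgeR in either list. Of 26 luminal epithelium markers, 23 were positive and the median log2 fold change was 0.42, against 49.9% positive and a median near 0 over all genes tested. Calb1, a calcium-binding protein of the luminal epithelium, averaged 487 ± 145 CPM in eutopic uterus and 276 ± 63.9 CPM in sham uterus. Krt19, an epithelial keratin, stood at 91.4 to 163 CPM in eutopic libraries and 57.4 to 87.1 CPM in sham libraries. Neither gene overlapped between groups, and Krt19 was called by voom. The mesothelium list, which shares Krt19, Upk1b and Upk3b with the luminal list, had 11 of 12 positive and a median of 0.45. The glandular list had 9 of 18 positive and a median of 0.08.

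The luminal list differed among eutopic libraries. Its mean centred log2 level was -0.21, 0.01, 0.43 and 0.49 in eutopic libraries 1 to 4, and -0.01, -0.26, -0.14 and -0.30 in sham libraries 1 to 4. Eutopic libraries 2, 3 and 4 stood above all sham libraries, library 2 by little, and eutopic library 1 lay inside the sham range. Summed levels of the 26 markers were 1664 to 2832 CPM in eutopic libraries and 1410 to 1872 CPM in sham libraries. The list's median was 0.54 without eutopic library 1 and 0.29 without eutopic library 3.

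The extracellular matrix list had the opposite order of libraries to the luminal list within the eutopic group. Of 38 matrix and fibrosis genes, 2 were positive and the median was -0.27, with 0 higher and 4 lower at unadjusted p under 0.05, beside 2.34% and 2.47% of all genes. The mean centred level was 0.21, -0.22, -0.22 and -0.34 in eutopic libraries 1 to 4 and 0.06, 0.26, 0.08 and 0.17 in sham libraries 1 to 4. Eutopic library 1 was within the sham range and the other 3 were below it, and without that library the median was -0.47. Tnc, the matrix glycoprotein tenascin C, averaged 27.4 ± 7.38 CPM in eutopic uterus and 46.6 ± 22.5 CPM in sham uterus. Timp1, an inhibitor of matrix metalloproteinases, averaged 10.8 ± 1.27 CPM in eutopic uterus and 14.8 ± 0.884 CPM in sham uterus, with no overlap. Mmp2, a gelatinase, averaged 341 ± 57.5 CPM in eutopic uterus and 451 ± 53.3 CPM in sham uterus.

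Stromal markers had 3 of 18 positive and a median of -0.11, which was -0.05 without sham library 3 and -0.07 without eutopic library 4, and 17 of their intervals lay within a 2-fold change. Their summed level was 13884 to 23935 CPM in eutopic libraries and 19940 to 23343 CPM in sham libraries, with eutopic library 1 the highest of all 8. Smooth muscle markers had 2 of 16 positive and a median of -0.13. How far the share of epithelium, stroma and muscle in each piece of tissue moved the gene values was not tested.

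**Figure D5:**
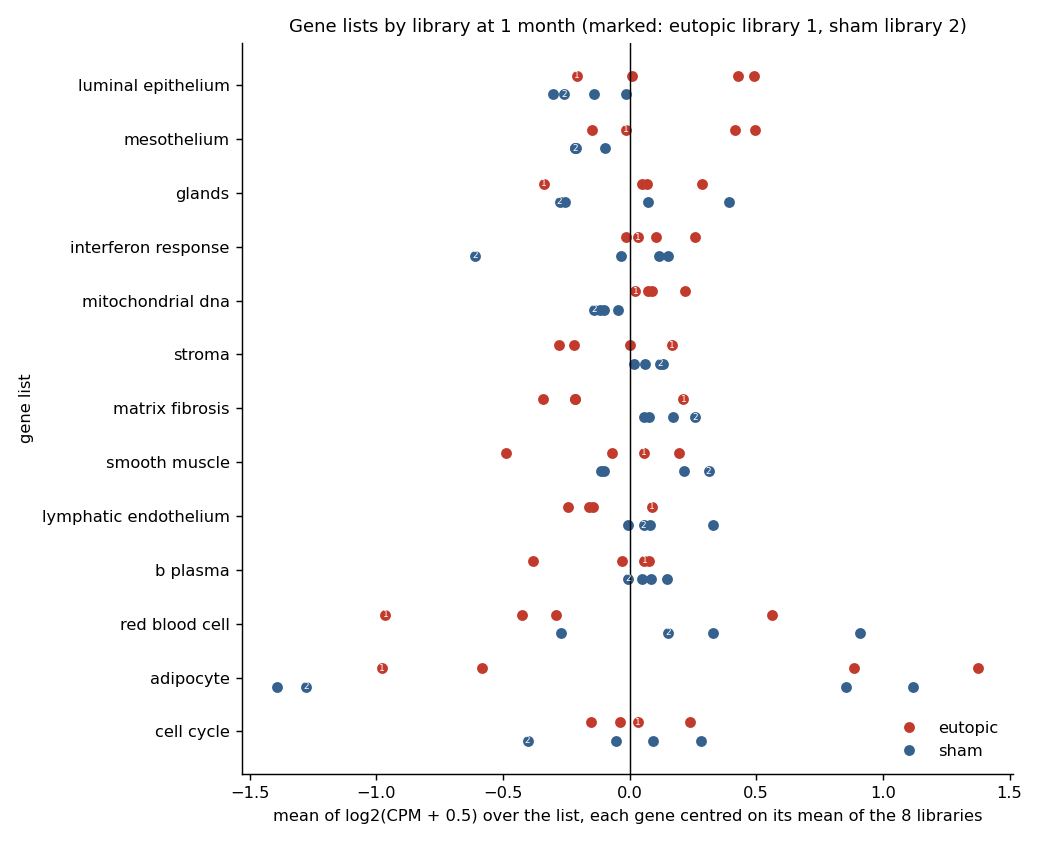
Mean centred log2 CPM of 13 gene lists in each library, eutopic libraries above sham libraries within each list, with eutopic library 1 and sham library 2 marked. For luminal markers eutopic libraries 2, 3 and 4, at 0.0073, 0.43 and 0.49, lie right of all sham libraries, while eutopic library 1 lies at -0.21.

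Vascular lists were close to 0 or below it. Endothelial markers had 4 of 15 positive and a median of -0.05, with all 15 intervals within a 2-fold change, and pericyte markers had 2 of 8 positive and a median of -0.11. All 11 lymphatic endothelium markers were negative, with a median of -0.24, which was -0.39 without eutopic library 1 and -0.14 without sham library 4. Their summed level was 336 to 372 CPM in eutopic libraries and 385 to 429 CPM in sham libraries. Their mean centred log2 level overlapped, at 0.09, -0.14, -0.16 and -0.24 in eutopic libraries 1 to 4 and 0.08, 0.06, -0.01 and 0.33 in sham libraries 1 to 4. Ccl21a, a chemokine of lymphatic vessels with near-identical copies in the mouse genome, averaged 37.9 ± 5.40 CPM in eutopic uterus and 56.1 ± 4.54 CPM in sham uterus, and its count is uncertain for that reason. All 8 red blood cell genes tested were negative, with a median of -0.67, which was -1.13 without eutopic library 2 and -0.34 without sham library 1. Their summed level was 37.5 to 162 CPM in eutopic libraries and 80.7 to 227 CPM in sham libraries, so the groups overlapped.

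The immune lists beside the DNA-sensing list held 0 genes called by edgeR. Interferon response genes had 36 of 42 positive and a median of 0.16, none at unadjusted p under 0.05. Sham library 2 was low for this list, at 995 CPM summed, against 1373 to 1579 CPM in eutopic libraries and 1358 to 1488 CPM in the other sham libraries. Without sham library 2 the median was 0.03 with 24 of 42 positive, and without sham library 1 it was 0.27. The NK cell and cytotoxic list had 12 of 17 positive and a median of 0.17, and sham library 2 was its lowest library as well. T cell markers had 14 of 20 positive and a median of 0.11, and macrophage markers 10 of 19 and 0.02. Cd8b1, a chain of the CD8 co-receptor, averaged 0.594 ± 0.319 CPM in eutopic uterus and 1.51 ± 0.578 CPM in sham uterus. Its values overlapped between groups, and it was among the 6 negative markers of the T cell list.

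B and plasma cell genes had 5 of 15 positive and a median of -0.13, with 3 lower and 0 higher at unadjusted p under 0.05, beside 2.47% and 2.34% of all genes. Jchain, the joining chain of secreted IgA and IgM, averaged 499 ± 130 CPM in eutopic uterus and 810 ± 150 CPM in sham uterus. Cd79a, part of the B cell receptor, averaged 2.80 ± 1.10 CPM in eutopic uterus and 4.95 ± 1.19 CPM in sham uterus. Both genes had no overlap between groups, and neither was called. Cytokine and chemokine genes had 16 of 33 positive and a median of -0.02. Complement genes had 16 of 24 positive and a median of 0.08. Neutrophil, mast cell and eosinophil, and dendritic cell lists had 6 of 10, 4 of 14 and 3 of 14 positive, with medians of 0.10, -0.39 and -0.11.

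Tissues around the uterus were also looked for. Adipocyte markers had 9 of 13 positive and a median of 0.14, but varied widely within each group. The fat cell hormone Adipoq had 0.578, 11.3, 17.4 and 1.39 CPM in eutopic libraries and 0, 0.0177, 12.4 and 10.04 CPM in sham libraries. Each group thus held 2 high and 2 low libraries. Ovarian steroid markers had a summed level of 21.3 to 30.5 CPM in eutopic libraries and 25.1 to 28.6 CPM in sham libraries, with Cyp19a1, Fshr and Hsd3b6 at 0 in all 8. Pancreas and liver markers summed to 12.4 to 15.1 CPM in eutopic libraries and 10.3 to 13.9 CPM in sham libraries. Oviduct markers had 5 of 6 positive, skeletal muscle markers 4 of 9, nerve and Schwann cell markers 4 of 13 and ciliated cell markers 7 of 13, with medians of 0.34, -0.32, -0.19 and 0.02.

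Housekeeping and stress programmes held 0 genes called by edgeR. The intervals of all 33 cell cycle genes, all 20 unfolded protein response genes, all 25 hypoxia and glycolysis genes and all 25 nuclear genes of the respiratory chain lay within a 2-fold change. Their medians were 0.03, -0.02, -0.03 and 0.11. Lipid and cholesterol synthesis genes had 7 of 24 positive and a median of -0.08, oxidative and iron handling genes 15 of 22 and 0.06, and immediate early genes 7 of 22 and -0.08. Genes encoded in mitochondrial DNA had 13 of 14 positive and a median of 0.22. Their share of all reads was 2.83% to 3.40% in eutopic libraries and 2.67% to 2.92% in sham libraries. The insulin-like growth factor list had 3 of 16 positive and a median of -0.11, and the aquaporin and ion transport list 10 of 16 and 0.27.

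Among better expressed protein-coding genes whose groups did not overlap, 167 were higher and 252 were lower in eutopic uterus. Symbols of predicted genes and of immunoglobulin or T cell receptor segments were left out of this count. Over all genes tested, a different set that includes noncoding and weakly expressed genes, 396 were higher (1.87%) and 352 lower (1.66%). Among the higher genes of the first count, Ifi202b stood far from the rest. Lypd6b, a relative of the Wnt-modulating protein LYPD6, came next at 1.53 ± 0.46, with 3.93 ± 1.08 CPM in eutopic uterus and 1.36 ± 0.527 CPM in sham uterus. Bcl2l15, a BCL2 family member, followed at 1.52 ± 0.47. Slc51a, a subunit of a bile acid and steroid exporter, stood at 1.29 ± 0.71 and Slc27a2, a fatty acid transport protein, at 1.23 ± 0.30. Slc27a2 averaged 6.12 ± 0.740 CPM in eutopic uterus and 2.61 ± 0.485 CPM in sham uterus. Ly6g2 and BC048679 had log2 differences of 1.23 ± 0.43 and 1.11 ± 0.47. None of these passed the test except Ifi202b, and voom also called Lypd6b and Bcl2l15.

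At the other end, Slc12a3, the thiazide-sensitive sodium chloride cotransporter, averaged 1.55 ± 0.729 CPM in eutopic uterus and 4.81 ± 2.42 CPM in sham uterus, a log2 difference of -1.63 ± 0.70. Nfasc, the cell adhesion protein neurofascin, stood at -1.18 ± 0.39. Thbs4, the matrix protein thrombospondin 4, averaged 5.20 ± 1.22 CPM in eutopic uterus and 11.3 ± 1.71 CPM in sham uterus. Tgm1, a transglutaminase that cross-links epithelial envelopes, stood at -1.08 ± 0.28. Csf2rb2, a receptor chain for interleukin 3, averaged 14.1 ± 1.91 CPM in eutopic uterus and 25.9 ± 8.07 CPM in sham uterus. Lefty1, Lif and Ifi213 completed the 8 lowest, and none of the 8 was called by edgeR.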

How the data were processed

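Total RNA of the uterus was sequenced, and the authors deposited a table of read counts per gene, the unit used here. Per the submitters' processing notes, bcl2fastq 1.9.0, STAR 2.7.9a and edgeR were used with build mm39. For the annotation release, counting mode and strand use, the sources used here give nothing. Reads of genes that share sequence or overlap could therefore be split or merged.

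The counts were fitted with edgeR 4.0.16 in R 4.3.3: TMM scaling, genes with few reads removed by filterByExpr, and the quasi-likelihood test over 16 uterine libraries of 4 groups, with Benjamini-Hochberg adjustment over 21208 genes and a threshold of 0.05. The contrasts were eutopic minus sham at 1 month, and that difference minus the one at 3 months. Errors of fold changes are SE, with 95% intervals from the same fit. CPM values use TMM factors of all 24 libraries, and list levels are means of log2(CPM + 0.5) centred per gene. DESeq2 1.42.0, limma 3.58.1 voom with library weights and other settings were alternatives. The code was checked on simulated counts.

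Genes named are those called, a uterine panel of 14, the 8 highest and 8 lowest fold changes among protein-coding genes with mean log2 CPM of at least 1 and groups that do not overlap, up to 3 members of each list by unadjusted p, up to 8 genes called only by each other tool, and the neighbours of called genes. The ranking by fold change left out symbols of predicted genes and of immunoglobulin or T cell receptor segments. Adipoq, Srp9, Cgas, Sting1 and the genes given as wide in range were picked after their values were seen. The members and lists were chosen with earlier results of these data known. Of the IDs tested, 20637 matched GENCODE M21, which was used for gene order and transcripts only (BLAST+ 2.17.0). Same-numbered eutopic and sham libraries were not treated as pairs, since no label pairs them.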

Additional observations from a re-analysis of the deposited data

Results flagged for a closer look

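In 80 groups of 4 libraries tested for a library far from the other 3, 6 held one, and chance alone gives about 1 in 20. Gm13736 was lowest in eutopic library 1, at 4.14 CPM. Pgr was highest in the same library, at 276 CPM. Ltf was highest in eutopic library 4, at 122 CPM, and Lefty1 in eutopic library 2, at 2.42 CPM. Guca1b was highest in eutopic library 2, where 1 read gave 0.0170 CPM and the other eutopic libraries had 0. Ighv1-14 was highest in sham library 3, at 5.09 CPM.

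The eutopic minus sham difference at 1 month exceeded that at 3 months in both called genes. The excess was 7.99 for Ifi202b and 4.14 for Gm13736 on the log2 scale, by the edgeR contrast of the differences.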

How the results depend on the processing

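Ifi202b and Gm13736 were called between eutopic and sham uterus at 1 month under each of the 15 alternatives run, with log2 fold changes of 7.26 to 7.68 and 4.24 to 4.97. The number of genes called was 14 with DESeq2 and 39 with limma voom, 3 with no filter on low counts or with only the 8 libraries, where Guca1b was the third, and 2 to 2 when 1 library of either group was left out. At unadjusted p under 0.05 the 1020 genes became 2628 without eutopic library 1, 619 without eutopic library 4 and 663 without sham library 2. For the difference between 1 and 3 months, DESeq2 called 8 genes and the fit of all 24 libraries 0, and leaving out 1 library gave 1 to 3. The fit with replicate numbers as a block called 2 genes in each comparison. Same-numbered libraries had correlations of deviations of 0.10, -0.08, 0.06 and -0.07. With 4 libraries a group, these values cannot settle whether same-numbered libraries belong together. Of 117 genes followed through these settings, 112 kept their direction in each setting. The 117 include genes not named here and leave out some that are, such as Adipoq and Zfp979. With voom, Wnt4 stood at 0.071, with a reversed sign. When 1 library of either group was left out, signs turned for Wnt4 (-0.41 to 0.075), Foxa2 (-0.096 to 0.080), Muc1 (-0.079 to 0.15), Ifi203 (-0.20 to 0.070) and Ptprj (-0.0015 to 0.16), and for the median of the implantation list (-0.085 to 0.066). The cause was not tested. List medians under these settings were added after seeing the data. Guca1b was called under some of these settings and not under others, and the reason was not tested.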

Other observations

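Genes on the distal part of chromosome 1 were looked at after the position of Ifi202b was known, so the counts describe these libraries and no test was made. From Ifi213 to the end of the chromosome, 181 genes were tested, of which 25 (13.8%) had unadjusted p under 0.05 in edgeR's fit, against 4.81% of all genes tested. At unadjusted p under 0.01 there were 10 (5.52%), against 182 (0.858%) of all genes. Lefty1, Lyplal1, Ifi211 and Srp9, which shares its sequence with Gm13736, lie in this stretch. Of the 39 placed genes called by any of the 3 tools, 6 lay on chromosome 1, which holds 6.42% of the genes with a position. The mice are labelled as a mixed C57BL/6 and SV129 background, and the part of inherited differences in these values was not tested.

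In 156 genes the 8 libraries spanned more than 16-fold with a highest level above 1 CPM, and 2 of these genes were called. They included 54 immunoglobulin or T cell receptor segments, 43 pseudogenes and 40 protein-coding genes. Sham library 2 alone was at least 8-fold above all the others in 13 of them and below all the others in 5, and sham library 3 alone in 13 and 7. The zinc finger gene Zfp979 had 0.0354 CPM in sham library 2 and 9.87 to 16.4 CPM in the other 7 libraries. Rps3a3, a pseudogene of a ribosomal protein, had 166 CPM in sham library 3. Rps2-ps13 had 88.2 CPM in eutopic library 2.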
